A study of Mus musculus with 14 samples.

Results

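Amino acid transporters are membrane proteins that carry amino acids into and out of cells. The 10 genes described here were chosen by name (*Slc7a5*, *Slc3a2*, *Slc1a5*, *Slc38a2*, *Slc7a1*, *Slc7a2*, *Slc38a3*, *Slc1a4*, *Slc6a14* and *Slc43a1*), and all 10 were found among the 20550 genes listed for each mouse. They were measured by total RNA-seq in mammary tissue on day 10 of lactation (L10) from 2 heterozygous mice, named wt/Wap-Tbrg4 or WT_wTbrg4. These mice carry a wild-type allele and an allele in which a CRISPR-Cas9 deletion joined the super-enhancer, promoter and start site of the whey acidic protein gene *Wap* to the body of the neighboring gene *Tbrg4*. The line was made in C57BL/6 zygotes, and both mice share the same genotype, tissue and stage. The age of the mice is not given in the sources used here. No gene among the transporters was targeted, and RNA from a second genotype was not analysed here, so the levels below describe these 2 mice and no test between conditions was made. The 12 ChIP-seq samples of the series are not analysed here.

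Milk protein synthesis draws its amino acids from the blood, and the secretory epithelium of the lactating gland takes them up across its basolateral membrane. Transporters fall into types by what they carry and by what drives them. Sodium-coupled carriers build up small neutral amino acids in the cell, obligatory exchangers trade one amino acid for another, and cationic carriers bring in arginine and lysine. Several of the exchangers are heterodimers of a light chain that transports and a heavy chain, encoded by *Slc3a2*, that brings it to the plasma membrane.

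Each gene has an exon FPKM, which stands mainly for spliced mRNA, and an intron FPKM, which stands for RNA that has not been spliced. FPKM are fragments per kilobase of gene length, scaled to the library, so that levels of different genes can be set beside each other. The deposited values carry 1 decimal, the depth of the libraries is unknown, and means are given as mean ± SD over the 2 mice. Of the 10 genes, 9 had an exon FPKM that averaged at least 1, compared with 48.0% of the 20515 genes with a usable symbol. Their median was 18.9 over the means of both mice, with 15.6 for replicate 1 alone and 19.9 for replicate 2. The median over all genes was 0.75. Whole tissue was sequenced, so fewer cells of a type and less RNA per cell cannot be told apart. Among the alveolar secretory markers levels differed widely. *Csn2*, which encodes beta-casein, had 108555 in replicate 1 and 481937 in replicate 2, and *Wap* had 172935 and 234774, whereas *Krt8* had 31.4 and 14.6.

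By mean exon FPKM the genes were ordered *Slc38a2*, *Slc1a4*, *Slc7a5*, *Slc3a2*, *Slc7a2*, *Slc1a5*, *Slc38a3*, *Slc7a1*, *Slc43a1* and *Slc6a14*. The values of the mice overlapped between *Slc7a5* and *Slc3a2* and between *Slc3a2* and *Slc7a2*, so these neighbors could not be put in order beyond their spread. The other neighbors did not overlap. *Slc38a2* and *Slc1a4* together held 60.0% of the summed exon FPKM of the 10 genes in replicate 1 and 59.7% in replicate 2.

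**Figure D1:**
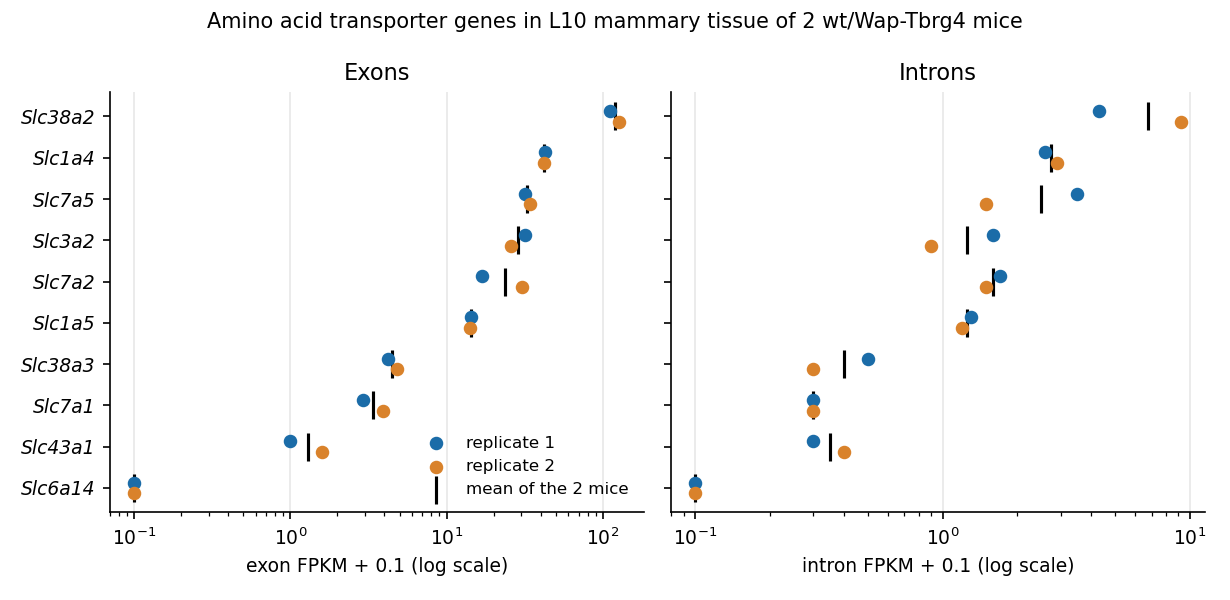
Exon FPKM (left) and intron FPKM (right) of the 10 transporter genes, each plus 0.1 on a log scale, with a point for each mouse and a bar at the mean. In exons *Slc38a2* lies apart at 110.9 and 127.1, *Slc6a14* is at 0 in both mice, and in introns *Slc38a2* and *Slc7a5* are the genes whose mice differ by more than 2-fold.

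*Slc38a2* encodes a sodium-coupled carrier of small neutral amino acids such as alanine, the transport activity known as system A. Its exons reached 110.9 FPKM in replicate 1 and 127.1 FPKM in replicate 2, or 119 ± 11.5 (SD, n = 2), which is rank 176 of 20515 genes. Both values were above those of every other amino acid transporter gene listed. The gene lies at chr15:96687392-96699728 on the minus strand of GRCm38.p6, with 16 exons over its RefSeq transcripts. *Slc38a3*, a related carrier of glutamine, asparagine and histidine known as system N, had 4.1 and 4.7, or 4.4 ± 0.42 (SD, n = 2). The ratio of *Slc38a2* to *Slc38a3* exon FPKM was 27 in both mice.

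*Slc1a4* and *Slc1a5* encode sodium-dependent exchangers of neutral amino acids, the former for alanine, serine, cysteine and threonine and the latter also for glutamine. *Slc1a4* had an exon FPKM of 42.2 in replicate 1 and 41.9 in replicate 2, rank 608. *Slc1a5* had 14.3 and 14.1, rank 2172. Both genes were nearly equal in the mice, and *Slc1a4* exceeded *Slc1a5* by 2.95-fold in replicate 1 and 2.97-fold in replicate 2. In introns *Slc1a4* was also the higher gene, by 2.08-fold and 2.55-fold. *Slc1a4* is on chromosome 11 (chr11:20302180-20332713), as are *Wap* and *Tbrg4*, while the other 9 genes are on other chromosomes.

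*Slc7a5* encodes the light chain of a sodium-independent exchanger that imports leucine and other large neutral amino acids, and *Slc3a2* encodes its heavy chain. *Slc7a5* had an exon FPKM of 31.5 in replicate 1 and 33.8 in replicate 2, rank 843. *Slc3a2* had 31.6 and 25.7, rank 977. The heavy chain thus equaled *Slc7a5* in replicate 1, with a ratio of 1.00, and was below it in replicate 2, with a ratio of 0.76. *Slc3a2* also pairs with the light chains of *Slc7a6*, *Slc7a7*, *Slc7a8*, *Slc7a10* and *Slc7a11*. *Slc7a7*, which exports cationic amino acids in exchange for neutral ones, was the highest of these with 7.7 and 12. *Slc7a6* had 5.3 and 6.2, and *Slc7a8* had 2.5 and 3.6. The lowest were *Slc7a10* with 2.3 and 2.5 and *Slc7a11*, the light chain of the cystine and glutamate exchanger, with 0.8 and 0.9. *Slc7a5* made up 62.9% of the summed exon FPKM of the 6 light chains in replicate 1 and 57.3% in replicate 2. Exon FPKM of *Slc3a2* per summed exon FPKM of the light chains came to 0.63 and 0.44 in replicates 1 and 2, or 0.53 ± 0.14 (SD, n = 2). In both mice the light chains together exceeded the heavy chain.

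**Figure D2:**
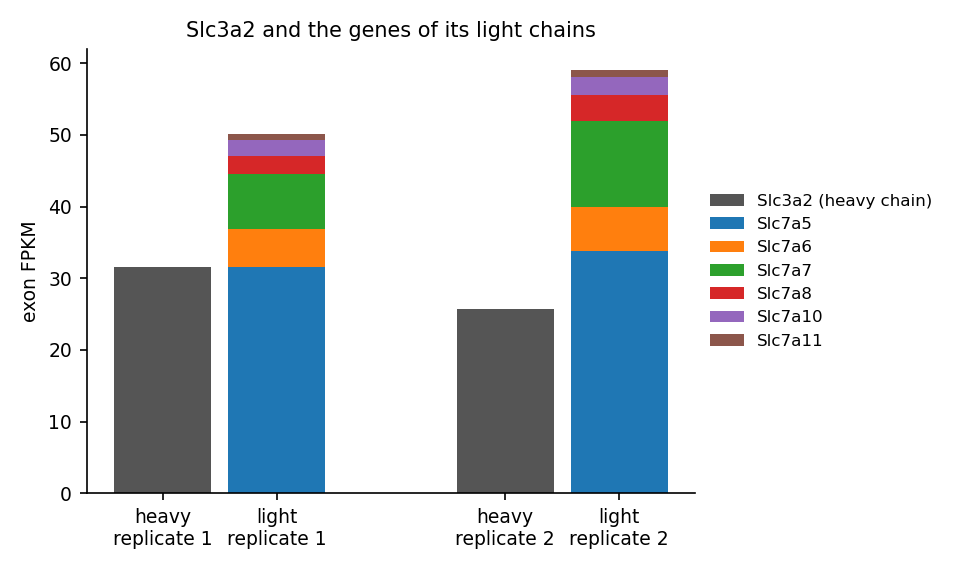
Exon FPKM of *Slc3a2* (heavy chain, grey bars) beside the stacked exon FPKM of its 6 light chain genes in each mouse, with the axis starting at 0. *Slc3a2* stands at 31.6 and 25.7 and the light chains at 50.1 and 59.0 in replicates 1 and 2, with *Slc7a5* the largest block in both.

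*Slc43a1* encodes a sodium-independent facilitative carrier of large neutral amino acids that needs no heavy chain. It was low, with an exon FPKM of 0.9 in replicate 1 and 1.5 in replicate 2, so replicate 1 alone was under the level of 1. Its annotated span overlaps the antisense noncoding gene *D930003E18Rik* (chr2:84838850-84840208). The library kit keeps the strand, but the strand setting of the counting is not given in the sources used here, so reads of the antisense gene cannot be told apart from those of *Slc43a1* in the overlap. No other of the 10 genes overlaps an annotated RefSeq gene. *Slc43a2*, which encodes a carrier of the same kind, had 3.0 and 1.7.

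*Slc7a1* and *Slc7a2* encode carriers of the cationic amino acids arginine, lysine and ornithine. *Slc7a1*, the form found in most tissues outside the liver, had an exon FPKM of 2.8 in replicate 1 and 3.8 in replicate 2. *Slc7a2* had 16.8 and 30.4, or 23.6 ± 9.62 (SD, n = 2). *Slc7a2* was therefore the higher of the pair, by 6.0-fold in replicate 1 and 8.0-fold in replicate 2. In introns it was also higher, with 1.6 and 1.4 compared with 0.2 for *Slc7a1* in both mice. *Slc6a14* encodes a carrier driven by sodium and chloride that takes up both neutral and cationic amino acids. It was listed at 0 in exons and introns of both mice. A value of 0 may be a failed estimate in these files, since genes used by every cell were also close to 0 in exons. *Gapdh* was listed with exon FPKM of 0.1 and 0.3, and *Ppia* with 0.4 and 0. Unlike *Slc6a14*, they had intron values, 0.7 and 0.9 for *Gapdh* and 1.5 and 2.4 for *Ppia*. *Acta2*, a marker of myoepithelial cells, was at 0 in exons and introns of both mice, as *Slc6a14* was.

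A search of the genome for near-identical copies of the coding sequences, with at least 50% of the length aligned at an identity of at least 95%, found 0 copies for each of the 10 genes. It found 46 for *Gapdh*. How reads that map to several places were counted is not given in the sources used here.

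A further 42 amino acid transporter genes gave the context. Of these, 15 averaged at least 1 in exon FPKM, 12 were above 0 but below 1, and 15 were listed at 0 in both mice. Among all 20515 genes, 9845, 4480 and 6190 were at these levels. The highest was *Slc38a10*, a relative of *Slc38a2*, with 39.2 in replicate 1 and 17.8 in replicate 2. It was followed by *Slc7a4* with 23.9 and 18.6 and by the glutamate carrier *Slc1a3* with 16.8 and 20.4. *Slc7a7* and *Slc7a6*, described among the light chains, came next, before the taurine carrier *Slc6a6* with 4.6 and 5.2. The values of *Slc38a10* spanned those of *Slc7a5* and *Slc3a2*, and those of *Slc38a10*, *Slc7a4* and *Slc1a3* overlapped those of *Slc7a2*, so the 10 genes do not cover all of the more abundant transporters. The 10 genes made up 67.6% of the summed exon FPKM of all 52 transporter genes in replicate 1 and 72.8% in replicate 2 (70.2% ± 3.71, SD, n = 2). The 15 genes at 0 were *Slc1a7*, *Slc6a5*, *Slc6a7*, *Slc6a17*, *Slc6a18*, *Slc6a19*, *Slc6a20a*, *Slc6a20b*, *Slc7a9*, *Slc7a12*, *Slc7a13*, *Slc7a14*, *Slc36a3*, *Slc38a5* and *Slc38a8*. Among them, *Slc6a18*, *Slc6a19* and *Slc7a9* are known for uptake in kidney or intestine.

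**Figure D3:**
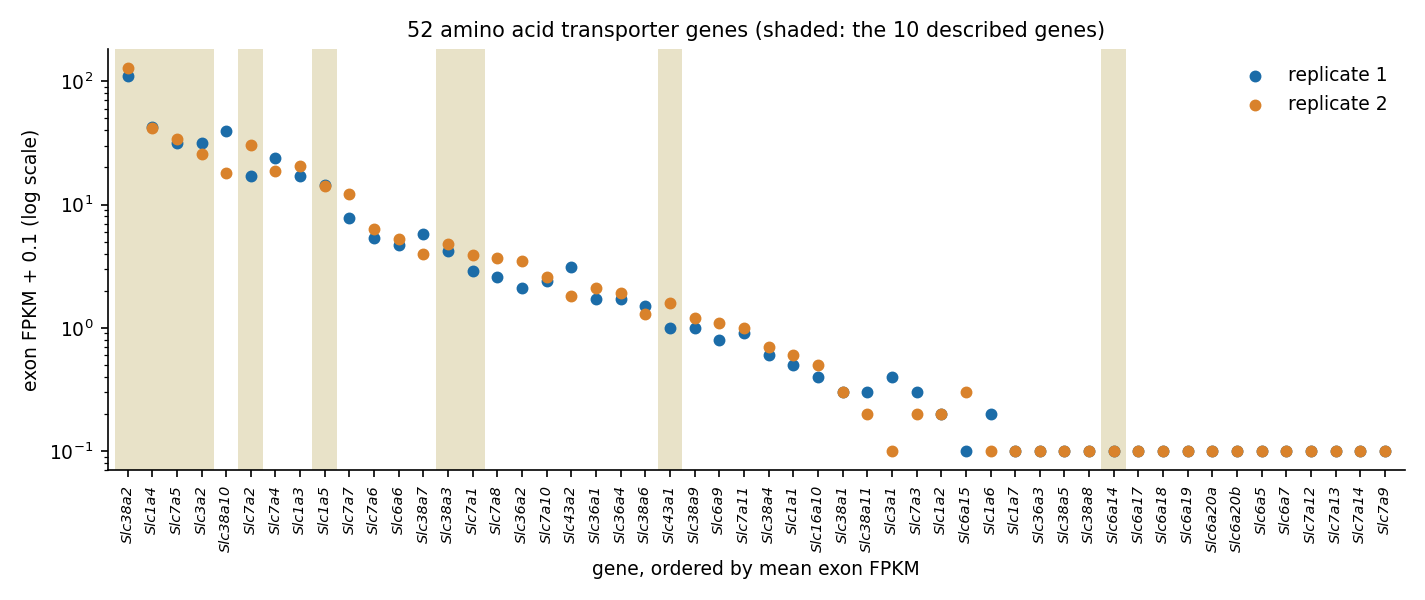
Exon FPKM plus 0.1 on a log scale for 52 amino acid transporter genes in order of the mean, with a point for each mouse and the 10 described genes shaded. By mean the highest are *Slc38a2*, *Slc1a4* and *Slc7a5*, then *Slc3a2* and *Slc38a10* at nearly the same mean, and 16 genes including *Slc6a14* are at 0 in both mice.

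Intron FPKM were above 0 in both mice for 9 of the 10 genes, with a median of 1.15 over the 10 means, 1.35 in replicate 1 and 0.95 in replicate 2. *Slc38a2* had the highest value here too, with 4.2 and 9.1, rank 81 by mean intron FPKM. *Slc1a4* followed with 2.5 and 2.8 and *Slc7a5* with 3.4 and 1.4. *Slc7a2* had 1.6 and 1.4, *Slc1a5* 1.2 and 1.1, and *Slc3a2* 1.5 and 0.8. The range of *Slc7a5* overlapped those of *Slc1a4*, *Slc7a2* and *Slc3a2*, and that of *Slc3a2* also overlapped those of *Slc7a2* and *Slc1a5*, with the same mean of 1.15 as *Slc1a5*. By these ranges the order of the genes in introns is largely not set beyond the spread. The exceptions were *Slc1a4*, above *Slc7a2*, *Slc1a5* and *Slc3a2* in both mice, and *Slc7a2* and *Slc7a5*, above *Slc1a5*. Compared within each mouse, *Slc7a5* and *Slc7a2* were also above *Slc3a2*, though the ranges overlapped. The remaining 3 genes above 0, *Slc38a3*, *Slc43a1* and *Slc7a1*, had 0.2 to 0.4, close to the rounding step of the files.

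Set against exons, the mean intron FPKM of *Slc38a2* was 5.59% of its mean exon FPKM, that of *Slc1a4* 6.30% and that of *Slc3a2* 4.01%. *Slc7a5* had 7.35%, *Slc7a2* 6.36% and *Slc1a5* 8.10%. The median over 3112 genes whose exon FPKM averaged at least 10 was 3.49%, so all 6 transporters of that level lay above it. They ranged from percentile 57.9 for *Slc3a2* to percentile 86.5 for *Slc1a5*. These percentages come from means and hide a spread between the mice. Exon FPKM per intron FPKM was 9.3 and 24.1 for *Slc7a5* and 10.5 and 21.7 for *Slc7a2*. It was 26.4 and 14.0 for *Slc38a2* and 21.1 and 32.1 for *Slc3a2*. The mice were closer for *Slc1a4* (16.9 and 15.0) and *Slc1a5* (11.9 and 12.8). This is a description of 2 libraries, and nothing particular to transporters is read from it.

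**Figure D4:**
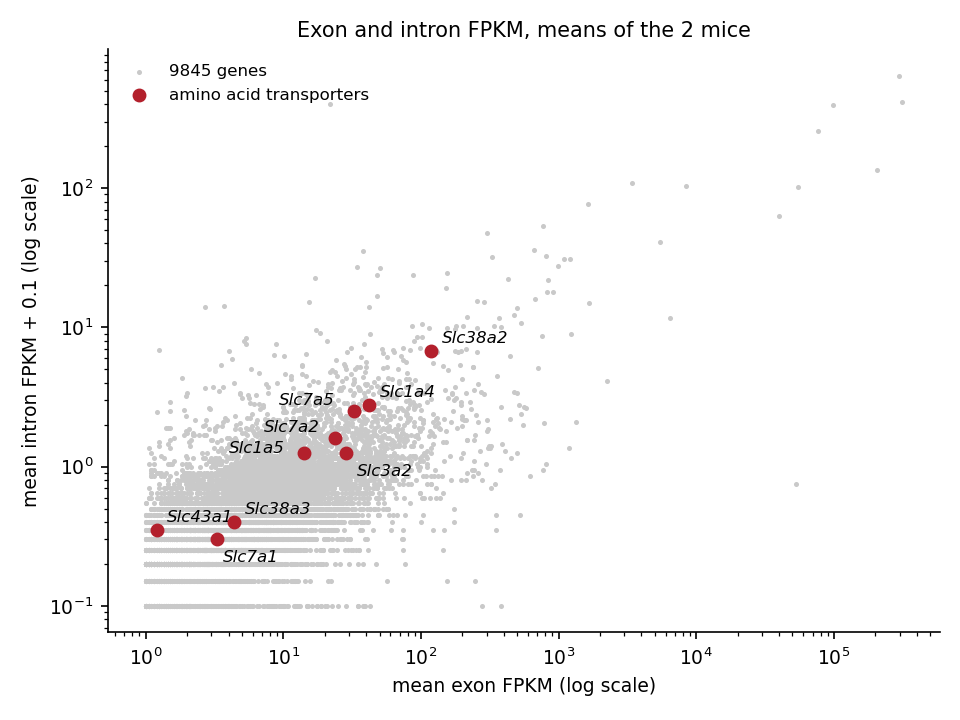
Mean intron FPKM plus 0.1 against mean exon FPKM, both on log scales, for 9845 genes whose exon FPKM averaged at least 1 (grey) and the 9 transporter genes among them (red). The transporters lie within the cloud of all genes, with *Slc38a2* at the upper right of the red points at 119 in exons and 6.65 in introns.

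The difference between the mice was taken as the log2 ratio of exon FPKM + 1, replicate 2 over replicate 1, for the 9845 genes whose exon FPKM averaged at least 1. With a mouse on each side this ratio has no replicate check, and it understates the change of low genes. None of the 9 transporters that passed this level differed by more than 2-fold, compared with 5.90% of all genes (581, of which 475 were higher in replicate 1). At that background, a count of 0 among 9 genes is no result about transporters. The median log2 ratio was 0.16 for the transporters and -0.08 for all genes. *Slc7a2* differed most, with a log2 ratio of 0.82 (16.8 compared with 30.4). A ratio of at least this size in either direction was seen in 11.3% of all genes, and the direction for *Slc7a2* turned to -0.20 when each mouse was scaled to the same sum. *Slc1a4* and *Slc1a5* differed least, with -0.01 and -0.02. *Slc3a2* was the gene furthest in the other direction, with -0.29. Of the 15 further transporter genes that reached this level, *Slc38a10* alone was more than 2-fold apart, with -1.10, which became -0.60 when a lowess fit on the GC content of exons was removed, so that 0 were left. With each mouse scaled to a sum of 1000000, 4 of the 15 were past 2-fold, compared with 42.6% of all genes.

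Direction between the mice depended on how they were scaled. Over all genes, exon FPKM summed to 852961 for replicate 1 and to 1788119 for replicate 2, of which the 7 milk protein genes held 560350 and 1508540. Scaling each mouse to a sum of 1000000 shifts the log2 ratio of FPKM by -1.07 and, on the scale with the pseudocount, moved the median of all genes from -0.08 to -0.90. Under that scaling the ratios of all 9 transporters were below 0, with a median of -0.86, and so were those of 97.8% of all genes. *Slc3a2* and *Slc1a4* were more than 2-fold lower in replicate 2 (log2 ratios of -1.31 and -1.05). Past 2-fold under that scaling were 42.6% of all genes, so 2 of 9 is not above the background. Relative to the median of all genes, the median of the transporters was 0.04 higher under that scaling and 0.24 higher in the FPKM as deposited. The sums without the 10 highest genes of each mouse were 174946 and 168597. Scaling on them left *Slc3a2* as the only gene of the 9 with a ratio below 0, compared with 53.0% of all genes.

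The ratio between the mice also followed the GC content of the exons, with a Spearman rho of -0.66 across 9839 genes, where genes are not independent replicates. In the tenth of genes with the lowest GC content the median log2 ratio was 0.39, and in the tenth with the highest it was -0.74. *Slc38a2* and *Slc7a2* have exons of low GC content (43.9% and 44.1%), and the median of the tenth that holds them was 0.23. *Slc38a2* had a ratio close to that median, 0.20, whereas *Slc7a2* was above it. *Slc7a5*, *Slc1a5* and *Slc38a3* have 56.2%, 56.5% and 56.3%, where the median was -0.51, and their ratios of 0.10, -0.02 and 0.16 lay above it. With a lowess fit on GC content removed, 8 of the 9 ratios were above 0, compared with 4922 of 9839 genes. The exception, *Slc38a2*, was at -0.02. The median became 0.47 and the largest ratio was that of *Slc43a1*, 0.75 (0.9 compared with 1.5 before the correction). *Slc7a2* then had 0.61. None of the 9 was more than 2-fold apart after the correction, compared with 1.91% of all genes.

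**Figure D5:**
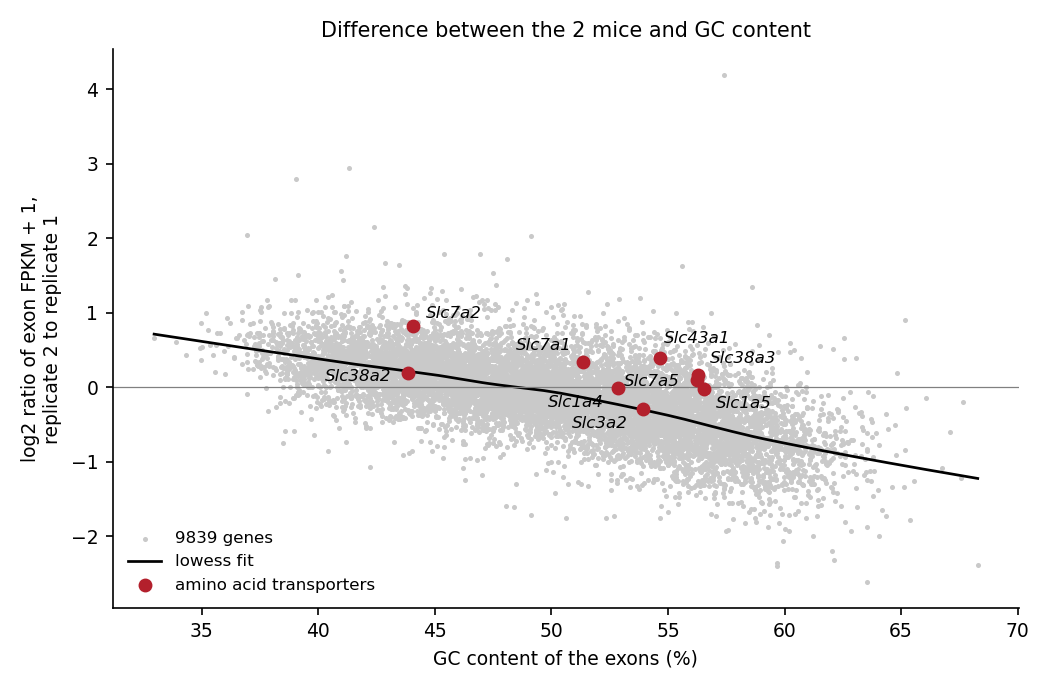
Log2 ratio of exon FPKM + 1 of replicate 2 to replicate 1 against GC content of the exons for 9839 genes (grey), a lowess fit (line) and the 9 transporter genes (red). The fit falls with GC content, *Slc38a2* and *Slc3a2* lie on it, and the other 7 transporters lie above it.

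In introns, 6 transporters had a mean FPKM of at least 0.5, and 2 of them were more than 2-fold apart on log2(FPKM + 0.1), compared with 6.52% of 4220 genes. *Slc38a2* was higher in replicate 2 (4.2 compared with 9.1, log2 ratio 1.10), while its exons differed by 1.15-fold. *Slc7a5* was lower in replicate 2 (3.4 compared with 1.4, log2 ratio -1.22), while its exons differed by 1.07-fold. For both genes the intron values of the mice were thus further apart than the exon values. With the mice scaled to a common sum of intron FPKM, which moved the median of all genes to -0.19, *Slc38a2* had 0.88 and was no longer past 2-fold, while *Slc7a5* had -1.43 and *Slc3a2* (1.5 compared with 0.8) passed it with -1.03. With a pseudocount of 1, none of the 6 was past 2-fold. *Slc7a2* showed the opposite, with exons 1.81-fold higher in replicate 2 and introns at 1.6 and 1.4. Each rests on a mouse against a mouse.

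Genes of the amino acid response, in which the factor ATF4 induces transporters and biosynthetic enzymes when amino acids run short, were read as a list of 18, of which 17 are listed. An average exon FPKM of at least 1 was reached by 14. The highest were *Nupr1*, a stress-induced cofactor (592.5 and 398.7), *Atf4* itself (164.0 and 160.0) and *Asns*, which makes asparagine (38.3 and 47.6). *Aldh18a1*, an enzyme of proline synthesis, was listed at 0. Of the 14 genes 12 were lower in replicate 2, compared with 55.4% of all genes, with a median log2 ratio of -0.47. After the GC correction 6 of 14 were lower, compared with 4917 of 9839 genes, and the median was 0.08. With each mouse scaled to a sum of 1000000, 14 of 14 were lower, as were 97.8% of all genes. *Phgdh*, the enzyme that opens serine synthesis (12.3 and 4.2), and *Ddit3* (4.0 and 1.1) were more than 2-fold lower in replicate 2, but not after the GC correction (log2 ratios of -0.79 and -0.85). These are 2 of 14, compared with 5.90% of all genes, and 10 of 14 were past 2-fold under the scaling to 1000000, compared with 42.6%.

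The kinase complex mTORC1 senses amino acids at the lysosome, and 31 of 32 genes of the complex, its regulators and its sensors are listed. Of these 28 reached 1. *Deptor*, an inhibitor of mTOR, was highest (58.7 and 83.1), followed by the activating GTPase *Rheb* (51.6 and 60.5) and *Lamtor2*, part of the lysosomal anchor (27.6 and 31.4). *Rragb* was lowest (0 and 0.1). Their median log2 ratio was -0.26 before and -0.02 after the GC correction. *Lamtor5* (15.2 and 31.8) was more than 2-fold higher in replicate 2 before and after the correction (1.02 and 1.06), though at -0.0028 when scaled to a sum of 1000000. *Lamtor4* (38.0 and 17.4) was more than 2-fold lower before the correction (-1.08) but not after it (-0.61). These were 2 of 28 before the correction, compared with 5.90% of all genes, and 1 of 28 after it, compared with 1.91%. Scaled to a sum of 1000000, 28 of 28 were lower and 16 were past 2-fold, compared with 97.8% and 42.6% of all genes.

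All 20 cytosolic aminoacyl-tRNA synthetases, which load amino acids onto tRNA, averaged at least 1 in exon FPKM, with a median of 20.2 that was close to the 18.9 of the transporters. *Nars* (46.8 and 33.5), *Rars* (33.9 and 34.0) and *Eprs* (34.4 and 28.1) were highest and *Farsa* (6.4 and 4.0) lowest. Of the 20 genes 16 were lower in replicate 2, compared with 55.4% of all genes, with a median log2 ratio of -0.46. After the GC correction 17 of 20 were lower, compared with 50% of all genes, and the median was -0.26. The transporters had 3 of 9 lower before and 1 of 9 after the correction. Scaled to a sum of 1000000, 20 of 20 and 9 of 9 were lower, compared with 97.8% of all genes, and 16 of 20 and 2 of 9 were past 2-fold, compared with 42.6% of all genes and with 0 of 20 and 0 of 9 in the FPKM as deposited. The difference between these lists was not tested.

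Zinc transporters, another set of carriers of the lactating gland, reached 1 in 17 of 24 genes, with a median of 9.43. *Slc39a8* was highest (223.8 and 289.1), above *Slc38a2*. It was followed by *Slc30a4* (44.1 and 69.0) and *Slc39a7* (64.9 and 29.3), and *Slc30a3* was among 5 genes at 0. The median log2 ratio was 0.03 before and 0.02 after the GC correction. *Slc39a7* was the gene more than 2-fold apart (-1.12), or 1 of 17 compared with 5.90% of all genes, and it was not after the GC correction (-0.52). Scaled to a sum of 1000000, 17 of 17 were lower and 6 were past 2-fold, with a median of -0.79, where 97.8% of all genes were lower and 42.6% past 2-fold.

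The 7 milk protein genes were led by *Csn1s2a* (168240 and 455483), *Csn2* and *Wap*, with *Lalba* lowest (8453.5 and 8265.4). Of the 7 genes 5 were more than 2-fold higher in replicate 2, compared with 106 of all 9845 genes, and 5 also after the GC correction, compared with 110 of 9839. Scaled to a sum of 1000000, *Csn2* alone stayed more than 2-fold higher (1.08), as did 6 of all 9845 genes, and *Lalba* was more than 2-fold lower (-1.10). Exon FPKM of *Csn2* was 979 times that of *Slc38a2* in replicate 1 and 3792 times in replicate 2. The summed exon FPKM of the 10 transporters was 255.1 and 283.0, or 299.1 and 158.3 for each 1000000 of the exon FPKM of all genes. The share was lower in replicate 2 while the sum was not. The total over all genes was 852961 and 1788119, of which the 7 milk protein genes held 560350 and 1508540. Without the 10 highest genes of each mouse the total was 174946 and 168597. The larger total of replicate 2 thus lay in the highest genes, and why these were higher was not tested.

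Markers of the other cell types differed between the mice by list. All 7 adipocyte markers were above 0, with a summed exon FPKM of 860.7 in replicate 1 and 625.4 in replicate 2. *Cfd* was the most abundant (692 and 436.5), and the other 6 together had 168.7 and 188.9. The 7 myoepithelial markers summed to 153.6 and 98.8, with *Myh11* highest and *Acta2* listed at 0. Of them 4 were lower in replicate 2 and 2 were higher, *Oxtr* (18.9 and 23.6) among the latter. The 3 skeletal muscle markers summed to 20.4 and 7.5, led by *Acta1*. The 5 macrophage markers summed to 92.0 and 63.9, with *Lyz2* highest by mean (35.5 and 36.7) and *C1qa* at 44.8 and 19.6, and the 4 endothelial markers to 47.5 and 40.6, led by *Cdh5*. The 5 fibroblast markers had close sums (152.3 and 155.6) but differed singly, with *Dcn*, the most abundant by mean, at 42.9 and 78.4, *Lum* at 11.1 and 18.6, *Col3a1* at 71.2 and 43.6 and *Col1a1* at 23.5 and 11.2. The GC correction took the log2 ratio of *C1qa* from -1.15 to -0.45 and that of *Col1a1* from -1.01 to -0.33, so neither stayed past 2-fold. Nor did the adipocyte marker *Plin1* (-1.29 to -0.46) or the muscle marker *Ckm* (-1.30 to -0.55). The myoepithelial marker *Krt14* (-1.56 to -1.02) and the muscle marker *Myh4* (-1.24 to -1.02) stayed more than 2-fold lower in replicate 2. The 4 lymphocyte and plasma cell markers summed to 107.5 and 89.9, nearly all of it *Jchain*, with *Cd3e* at 0 and 0.1. The 4 hormone-sensing luminal markers summed to 10.9 and 19.2, led by *Esr1*, with *Areg* at 0. The 10 secretory markers summed to 388138 and 936408, led by *Csn2*, with 6 genes higher and 4 lower in replicate 2, 8 and 2 after the GC correction, and 2 and 8 when scaled to a sum of 1000000. Lower in the FPKM as deposited were, among others, the keratins *Krt18* (145 and 57.6) and *Krt8* (31.4 and 14.6), which was the lowest of the list. Their log2 ratios of -1.32 and -1.05 became -0.84 and -0.53 after the GC correction. Under the scaling to 1000000, 1 of the 2 hormone-sensing markers that reached 1 was higher, in place of 2. Outside the hormone-sensing and secretory lists, all markers that reached 1 were lower, as were 97.8% of all genes. The part of cell composition in the differences of *Slc7a2* and the other transporters was not tested.

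The genes most like *Slc38a2* in exon and intron FPKM of both mice were *Fam13a*, *Ndrg1* and *Abhd5*. Likeness was measured as the Euclidean distance over log2(exon FPKM + 1) and log2(intron FPKM + 0.1), 4 values in 2 mice. *Fam13a* was nearest at a distance of 0.71, with exons at 76.6 and 100.7 and introns at 4.4 and 11.4, so its introns were also more than 2-fold higher in replicate 2. *Ndrg1* had exons at 128.8 and 115.1 and *Abhd5* at 134.6 and 154.2, and the introns of both were nearly equal in the mice.

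Promoter windows from RefSeq on GRCm38.p6, 250 bases before to 50 bases after the start site, matched 6 of the 10 genes by symbol, with 7 windows as *Slc7a1* has 2. The genes without a window in the table were *Slc7a5*, *Slc1a5*, *Slc7a2* and *Slc38a3*. The windows were searched on both strands for TTCNNNGAA, recognized by the prolactin-activated factor STAT5, for the CRE sequence TGACGTCA, and for TGATGNAA, the C/EBP-ATF response element through which ATF4 acts. These were found in 8.30%, 1.79% and 3.97% of all 32851 windows. Matches were present in 2 of the 7 windows, with a different sequence in each. This count takes all the sequences together, so it cannot be set beside the shares, which are for each sequence alone. The windows of *Slc38a2* and *Slc3a2*, shown for their high levels, hold none of the sequences, the window of *Slc1a4* holds the reverse complement of a C/EBP-ATF element in capitals, and the downstream window of *Slc7a1* holds a STAT5 sequence in capitals. The window of *Slc3a2* starts from a site 9472 bases inside the annotated gene, that of *Slc43a1* 915 bases and the downstream one of *Slc7a1* 7089 bases, so these are not windows at the outermost annotated start.
*Slc38a2*, chr15:96699679-96699978, minus strand: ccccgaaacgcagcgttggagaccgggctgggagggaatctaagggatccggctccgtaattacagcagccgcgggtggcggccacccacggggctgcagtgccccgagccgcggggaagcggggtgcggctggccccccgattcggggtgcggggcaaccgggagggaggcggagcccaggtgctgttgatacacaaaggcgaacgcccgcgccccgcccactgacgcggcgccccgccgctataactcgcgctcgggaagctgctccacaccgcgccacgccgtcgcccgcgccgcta
*Slc3a2*, chr19:8713848-8714147, minus strand: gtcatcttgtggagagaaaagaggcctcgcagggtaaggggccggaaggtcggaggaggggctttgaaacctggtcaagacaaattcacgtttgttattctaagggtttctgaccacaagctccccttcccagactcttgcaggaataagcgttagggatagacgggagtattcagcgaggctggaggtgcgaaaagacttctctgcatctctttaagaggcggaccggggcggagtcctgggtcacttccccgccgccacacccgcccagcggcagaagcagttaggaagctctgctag
*Slc1a4*, chr11:20332664-20332963, minus strand: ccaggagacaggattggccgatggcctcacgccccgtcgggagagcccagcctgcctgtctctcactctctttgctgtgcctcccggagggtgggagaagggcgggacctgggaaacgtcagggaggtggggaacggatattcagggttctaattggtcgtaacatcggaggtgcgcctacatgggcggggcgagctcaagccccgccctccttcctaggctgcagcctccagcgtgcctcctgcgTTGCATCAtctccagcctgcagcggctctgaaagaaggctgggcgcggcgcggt
*Slc7a1*, chr5:148392766-148393065, minus strand: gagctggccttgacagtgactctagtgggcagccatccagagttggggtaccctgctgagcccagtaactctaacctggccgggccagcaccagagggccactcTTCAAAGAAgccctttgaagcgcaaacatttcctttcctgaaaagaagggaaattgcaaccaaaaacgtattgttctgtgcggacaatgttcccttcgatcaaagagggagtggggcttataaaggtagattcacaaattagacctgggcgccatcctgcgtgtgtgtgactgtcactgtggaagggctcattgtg

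In *Slc1a4*, TTGCATCA lies at chr11:20332710-20332717 and spans the annotated start site. In *Slc7a1*, TTCAAAGAA lies at chr5:148392953-148392961, upstream of the start site of that window, within the annotated gene (chr5:148327410-148399904). The other window of *Slc7a1* (chr5:148399855-148400154) and those of *Slc43a1* and *Slc6a14* hold none of the 3 sequences. *Slc38a2*, the most abundant amino acid transporter listed, and *Slc6a14*, listed at 0, thus both lack them in these windows. Of the windows with a match, *Slc1a4* belongs to a gene at 42.1 and *Slc7a1* to a gene at 3.3. A match describes letters in the reference and says nothing of binding, and no match says only that the letters are not in the window.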

How the data were processed

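Total RNA of L10 mammary tissue from 2 wt/Wap-Tbrg4 mice was made into stranded libraries by the authors, mapped to mm10 with STAR and counted with HTSeq on the collapsed exons of each UCSC known gene and on the introns between them. The deposited FPKM were generated by the authors with DESeq2, and their scaling total and the version of STAR are not given in the sources used here. Values carry 1 decimal, so reads could not be recovered and the depth is unknown. They were used without rescaling. Of 20550 listed genes, 35 without a usable symbol were left out. RefSeq (GRCm38.p6, the assembly of mm10) gave positions and exon GC content for 99.7% of the rest. Ratios between the mice used a pseudocount of 1 for exons and 0.1 for introns and means of at least 1 and 0.5. The GC correction was a lowess fit over 9839 genes with a local span of 30%. It was tried on simulated data with a straight trend in GC content. That trial cannot show what the trend between these mice stands for. Copies were searched by aligning coding sequences with minimap2. The 10 genes and all gene lists were chosen with earlier results of these data known. All 10 genes are named, with the 6 highest of the other 42 transporters, the light chains of *Slc3a2*, further transporters more than 2-fold apart, the 3 highest genes and the lowest of each further list, those nearest to *Slc38a2*, and markers by list. Names given beyond this rule (*Slc43a2*, *Gapdh*, *Ppia*, *D930003E18Rik*, the transporters at 0, and *Phgdh*, *Ddit3*, *Lamtor4* and *Lamtor5*) were chosen after their values were seen. Alternatives changed the scaling, mean, pseudocount, filter and GC correction, and left out each mouse. Software was minimap2 2.31, statsmodels 0.14.6, scipy 1.17.1, pandas 2.3.3, numpy 2.4.6, matplotlib 3.10.9 and Python 3.11.15.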

Additional observations from a re-analysis of the deposited data

How the results depend on the processing

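With 2 mice of a single genotype and unknown depth, precision rests on the spread between these mice, and values below 0.5 are close to the rounding step of the files. No paired analysis was possible because there was a single group. Leaving out a mouse gave no value for ratios between mice. Leaving out each mouse in turn gave a median exon FPKM of the transporters of 15.55 to 19.9, a median intron FPKM of 0.95 to 1.35, 8 to 9 genes with at least 1, 0.44 to 0.63 for *Slc3a2* per light chains, and a share of 67.6% to 72.8% of all transporters. Bringing each mouse to a sum of 1000000 gave medians of 15.3 in exons and 119.2 in introns, the latter because intron sums are far below that total. The same rescaling of the ratios, chosen after seeing the data, gave a median log2 ratio of -0.86 in place of 0.16, and 2 genes more than 2-fold apart in place of 0. The median log2 ratio was 0.044 with a mean FPKM of at least 10, where 6 genes were left, and 0.47 with the GC correction. The cause was not tested. It stayed between 0.13 and 0.24 with a pseudocount of 0.1, without a filter (0.13, as *Slc6a14* then enters with a ratio of 0 from values of 0), centred on the median and, chosen after seeing the data, rescaled without the 10 highest genes. The GC correction turned *Slc38a2* from 0.20 to -0.02 and *Slc3a2* from -0.29 to 0.01, and brought *Slc1a4* and *Slc1a5* from just below 0 to 0.22 and 0.47. The count of all genes more than 2-fold apart, 581 of 9845, was 1102 with a pseudocount of 0.1, 231 of 3112 with a mean of at least 10, 188 with the GC correction and 4193 rescaled to a sum of 1000000. The share of these higher in replicate 2 was 18.2%, and it was 58.5% with the GC correction, 0.14% with that rescaling and 26.3% when centred. In introns, the 2 transporters more than 2-fold apart became 0 with a pseudocount of 1 (all genes: 275 became 66 of 4220) and stayed 2 under the rescalings to a common sum (all genes: 378) and without the 10 highest genes (all genes: 300), all chosen after seeing the data, with *Slc3a2* in place of *Slc38a2* when scaled to a common sum. Of the single-gene exon ratios, the GC correction and the rescaling to a sum of 1000000 each moved 9 of 9 by more than 0.1, centring and the rescaling without the 10 highest genes moved 0 of 9, and a pseudocount of 0.1 moved 1 of 9. The filters leave a gene's ratio as it is, and leaving out a mouse moves a mean of 2 by a fixed share of its SD, so neither bears on single genes. Settings of the further lists were chosen after seeing the data. With the GC correction *Slc38a10*, *Phgdh*, *Ddit3*, *Lamtor4* and *Slc39a7* were no longer past 2-fold. Nor were the markers *Krt18*, *Krt8*, *C1qa*, *Col1a1*, *Plin1* and *Ckm*. In the other direction, 1 hormone-sensing marker passed 2-fold with that correction, in place of 0. The markers *Krt14* and *Myh4* stayed past 2-fold, with -1.02 for each. Under the rescaling to 1000000 *Lamtor5* went from 1.02 to -0.0028.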
